A study of Mus musculus with 15 samples.

Results

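Mbnl3 HITS-CLIP of mouse embryonic forelimb was compared between wild type (WT) and animals homozygous for the Mbnl3 ΔE2 allele (ΔE2). The 6 forelimb CLIP samples, 3 per genotype, were taken by their labels from the 15 samples of a series that also holds CLIP of C2C12 myoblasts and RNA-seq of forelimb. All forelimb material came from the BL6 strain at 15 days post coitum (E15), and the series design describes the mice as female. Each replicate pooled 4 forelimbs of 2 embryos, so no value belongs to 1 animal. Both genotypes were handled alike per the labels: frozen tissue was ground, crosslinked with ultraviolet light and precipitated with the antibody Mb3/7 against Mbnl3, with RNase A at 55 or 0.55 U/ml. The labels do not tie an RNase amount to a library. The titles of the mutant samples read Mbnl3 KO, and the genotype fields give the deletion; Mbnl3 protein and tags at the Mbnl3 gene itself were not analysed here. The forelimb is a mixed tissue, and no cell type was isolated.

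Muscleblind proteins bind RNA through zinc fingers, prefer YGCY-like motifs and act on alternative splicing, RNA localization and 3′ end use. Mbnl3 is the member of the family that is found mainly in embryonic tissue and in regenerating muscle. In HITS-CLIP, RNA that has been crosslinked to a protein is trimmed with RNase, precipitated and sequenced as short tags, so a pile of tags marks RNA recovered with the antibody. A tag count follows both how much of an RNA is present and how much of it is recovered, and total RNA per gene was not analysed here.

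A tag here is a read position with a 5-base barcode, in which the last base was always G and 256 different barcodes occurred. Tags with the same chromosome, start, end, strand and barcode in different libraries are called the same molecule. The WT libraries held 35413, 74123 and 124309 tags (replicates 1 to 3), and the ΔE2 libraries held 67279, 40531 and 59115. ΔE2 replicates 2 and 3 had 33916 molecules in common, 83.7% and 57.4% of their tags, so they were joined, giving 65730 tags. Thus 3 WT libraries were compared with 2 ΔE2 libraries. The WT libraries shared molecules too but were kept apart, and the p-values treat them as separate. WT 2 and WT 3 had 24005 in common, 32.4% and 19.3% of their tags. WT 1 shared 10552 with WT 2 and 11099 with WT 3. Values below are given in the order WT 1, WT 2, WT 3, ΔE2 1 and joined ΔE2.

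Molecules were also shared across the genotypes. WT 3 and ΔE2 1 had 20258 molecules in common, or 16.3% of the tags of WT 3 and 30.1% of those of ΔE2 1, with 77.1% and 59.2% of their reads. WT 2 and ΔE2 1 had 10015 in common, and WT 1 and ΔE2 1 had 3095. Among tags that 2 libraries held at the same position, the barcode was also the same for 32.3% of pairs between WT 3 and ΔE2 1, 26.4% between WT 2 and ΔE2 1 and 14.2% between WT 1 and ΔE2 1. Between any WT library and ΔE2 2 or ΔE2 3, this share was from 3.38% to 5.95%. Within WT it was 44.6% for WT 2 and WT 3, 42.8% for WT 1 and WT 2 and 35.3% for WT 1 and WT 3. For ΔE2 2 and ΔE2 3, which were joined, it was 39.4%. By this share ΔE2 1 was nearer to each WT library than to the other ΔE2 libraries, where it was 5.06% and 5.95%. Dropping every molecule found in both genotypes kept 64.5% of the tags of ΔE2 1, 92.5% of the joined ΔE2 library and from 82.3% to 89.4% of the WT libraries. The read names place the WT libraries on lanes 1, 2 and 3 and the ΔE2 libraries on lanes 5, 6 and 7, with part of ΔE2 3 on lane 8. Lane and genotype cannot be told apart, and how the shared molecules arose was not tested.

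**Figure D1:**
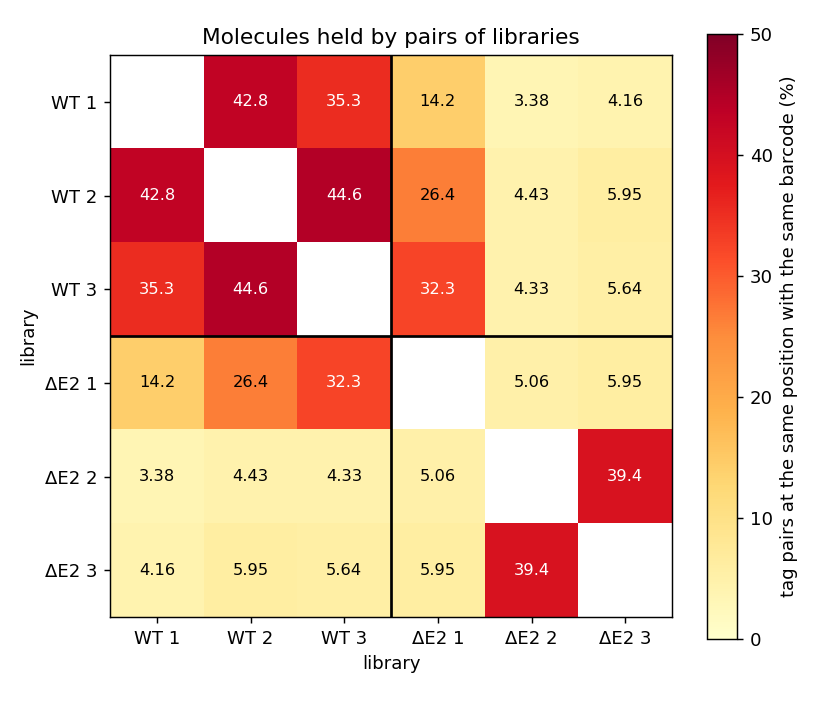
Share of tag pairs at the same position that also had the same barcode, in percent, for each pair of the 6 forelimb libraries; black lines separate the genotypes. ΔE2 1 sits at 14.2, 26.4 and 32.3 with the WT libraries and at 5.06 and 5.95 with the other ΔE2 libraries.

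More sites were called higher than lower in ΔE2 forelimb when libraries were scaled on the tested sites, and the called gains included noncoding RNAs, ribosomal RNA and several messenger RNAs. Tags of one strand with an overlap of 1 nt or more formed 191766 clusters, of which 276 had enough tags to be tested, with a median length of 151 nt. Of these, 62 (22.5%) passed edgeR's quasi-likelihood test at an adjusted p of 0.05, 44 higher (15.9%) and 18 lower (6.52%) in ΔE2. Clusters were then joined into regions where gaps were at most 1000 nt, which holds the tags of about 1 transcript end or locus. Of 672 tested regions, 71 (10.6%) passed, 55 higher (8.18%) and 16 lower (2.38%). The median log2 fold over all tested sites was -0.08 for clusters and -0.05 for regions, with 133 clusters above 0 and 143 below, and 324 regions above and 348 below.

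How many sites rose or fell changed with the scaling. In this comparison each library was scaled on its tags in tested sites with TMM factors, and CPM below means tags per 1000000 tags on that scale. With the number of all tags of a library in its place, the median log2 fold was lower by 0.50 for clusters and by 0.52 for regions. Then 22 clusters were called higher and 58 lower, and 22 regions higher and 148 lower. All 62 called clusters and all 71 called regions kept their sign under whole-library size. The calls that stood under both scalings were 22 of the 44 higher and all 18 lower clusters, and 22 of the 55 higher and all 16 lower regions. Folds below are relative to the median site unless whole-library size is named.

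Among the fits that left out 1 replicate, those without WT 2 or WT 3 had the fewest calls. The number of called clusters fell from 62 to 16 without WT 2 and to 22 without WT 3, and that of called regions from 71 to 44 and 34. With WT 2 and WT 3 joined like the ΔE2 pair, edgeR called 0 of 238 clusters, 72 of them with an unadjusted p under 0.05, and 37 of 564 regions. With molecules found in both genotypes dropped, 110 clusters (63 higher, 47 lower) and 138 regions (91 higher, 47 lower) were called. This removal takes away what the groups have in common, so it widens differences by construction. All 60 of the 62 clusters that could still be tested kept their sign and their call there. With each shared molecule kept only in the library that held most of its reads, 75 clusters and 85 regions were called. Among them were 56 of 59 and 61 of 67 of the main calls that could be tested. This also takes away what the groups have in common, and folds were wider for 57 of the 59 clusters and 64 of the 67 regions. It kept 93.9% of the tags of the joined ΔE2 library, 70.3% of those of ΔE2 1 and from 71.8% to 84.9% of the WT libraries.

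**Figure D2:**
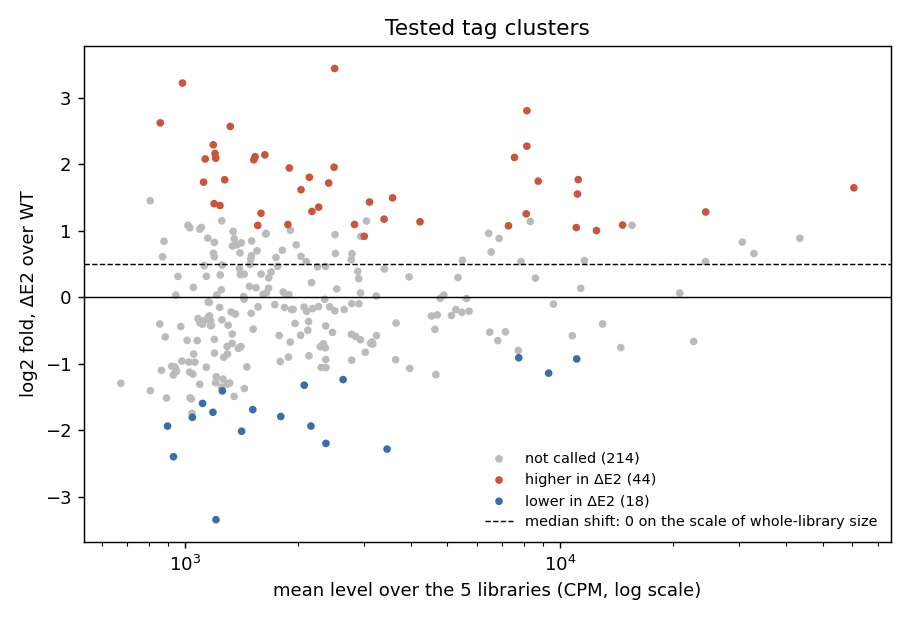
Each point is 1 of the 276 tested clusters, with its mean level over the 5 libraries (CPM, log axis) against its log2 fold of ΔE2 over WT; red points were called higher (44), blue points lower (18) and grey points were not called (214). The dashed line at 0.50 marks where 0 lies with whole-library size, and the called gains stand above both lines.

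Of the 55 regions called higher, 3 lay at the nuclear noncoding RNAs Malat1, Neat1 and Xist, and none of these was called with whole-library size. Malat1 and Neat1 are long RNAs that stay in the nucleus, at and next to splicing speckles and in paraspeckles, and muscleblind proteins are known to bind Malat1. Xist coats the inactive X chromosome of female cells; it was added to the loci after its values were seen. The names in this and the following paragraphs come from the known places of these genes in the mm9 build, which the files use, and were not checked against an mm9 annotation; all positions are counted from 1.

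The Malat1 region (chromosome 19, 5795971 to 5802671, minus strand) held 233, 501 and 944 tags in WT and 580 and 518 in ΔE2. On the CPM scale these were 22917, 23778 and 25965 in WT and 38478 and 44648 in ΔE2. Both ΔE2 libraries lay above all WT libraries; the genotypes did not overlap, in either direction, in 47.8% of all tested regions and 55.8% of all tested clusters. Malat1 differed by 0.78 ± 0.26 log2 units (SE, edgeR adjusted p = 0.0477), and 0.24 with whole-library size (edgeR adjusted p = 0.497). As a share of all tags of a library, Malat1 gave 0.658%, 0.676% and 0.759% in WT and 0.862% and 0.788% in ΔE2, which also did not overlap. Of the 11 tested Malat1 clusters, 5 were called higher and none lower, against 15.9% higher over all tested clusters, with a median log2 fold of 0.68 (0.16 with whole-library size, where 3 were called higher). Of the 5, those from 5796081 to 5796259, 5798612 to 5799007 and 5799447 to 5799561 lost their call without WT 2 or WT 3.

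Within Malat1 the tags were distributed differently. A test of each cluster's share of its region does not depend on the scaling between libraries, and it was run with edgeR's diffSpliceDGE on 136 clusters in 49 regions. It called 2 of them (1.47%), and both lay in Malat1. The cluster from 5798304 to 5798584 held 5.15%, 5.39% and 7.10% of the Malat1 tags of WT, but 17.6% and 17.95% of those of ΔE2. The genotypes were far apart there, with WT at 5.88% ± 1.06 (SD, n = 3) and ΔE2 at 17.8% ± 0.260 (SD, n = 2), and its share had a log2 fold of 1.56 (edgeR adjusted p = 0.000824). The cluster from 5799127 to 5799244 held 0%, 1.20% and 0.847% in WT and 3.10% and 3.09% in ΔE2, with a log2 fold of its share of 1.86 (edgeR adjusted p = 0.0152). Its tag counts were small, at 0, 6 and 8 in WT and 18 and 16 in ΔE2.

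The densest Malat1 cluster, from 5797382 to 5797951, made up 43.3%, 38.9% and 37.5% of the tags of the region in WT and 25.3% and 23.2% in ΔE2. Its own level was 20416 ± 1897 CPM for WT against 21390 ± 520 for ΔE2 (SD, n = 3 and 2), a log2 fold of 0.06 ± 0.28 (SE), so the change in share went with gains elsewhere in the region on the TMM scale. With whole-library size its log2 fold was -0.47, with an edgeR adjusted p of 0.286. Its change in share had a log2 fold of -0.65 and did not pass (edgeR adjusted p = 0.669). The 5 clusters in the 5′ part of the region, from 5799681 to 5801682, had log2 folds of their levels from -0.02 to 0.68 (from -0.54 to 0.16 with whole-library size), and none was called.

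The call on the share of the first cluster was lost without WT 2, and that of the second without WT 2, WT 3 or ΔE2 1. With tags collapsed to 1 per 5′ end, the log2 fold of the 2 shares was 0.83 and 1.71 (edgeR adjusted p = 0.107 and 0.0117), and with WT 2 and WT 3 joined edgeR's adjusted p was 0.0476 and 0.123. With molecules of both genotypes dropped, which widens differences by construction, edgeR's adjusted p was 8.07e-08 and 0.000879. Tags of the first cluster started at 10, 15 and 38 positions in WT but at 39 and 37 in ΔE2, and the most used start held 12.7% and 20.4% of its ΔE2 tags. WT 3 used nearly as many starts for its 67 tags as the ΔE2 libraries did for 102 and 93.

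**Figure D3:**
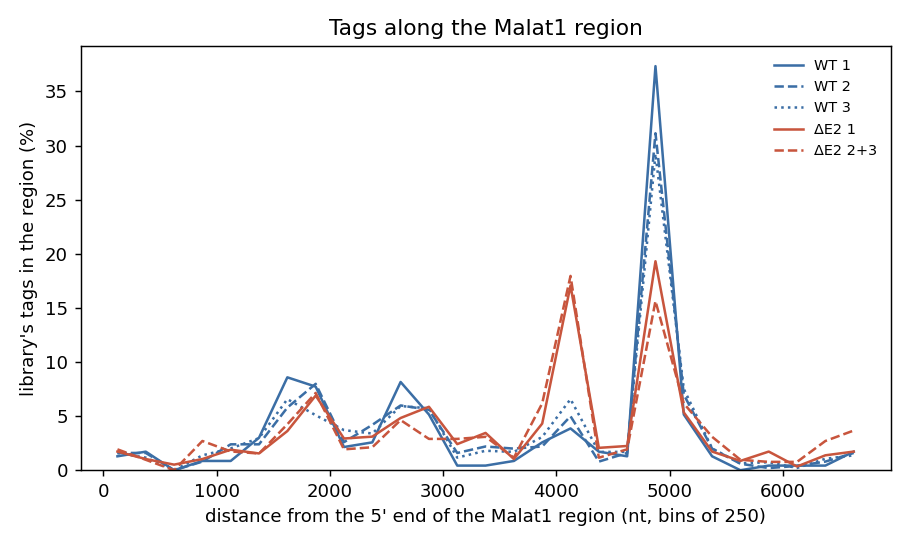
Share of each library's Malat1 tags along the region, in bins of 250 nt by distance from its 5′ end (27 bins); blue lines are the 3 WT libraries and red lines the 2 ΔE2 libraries. Around 4000 nt the ΔE2 lines stand at 17.1% and 17.95% and the WT lines between 3.86% and 6.57%, and around 4750 nt the order is the other way round.

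Neat1 (chromosome 19, 5824980 to 5845223, minus strand) held 18, 40 and 78 tags in WT and 59 and 45 in ΔE2, or 1770, 1898 and 2145 CPM against 3914 and 3879. The region rose by 0.98 on the log2 scale (SE 0.26, edgeR adjusted p = 0.0130). Xist (chromosome X, 100658766 to 100663566, minus strand) held 38, 104 and 152 tags in WT and 128 and 92 in ΔE2, or 3738, 4936 and 4181 CPM against 8492 and 7930. Xist was higher by 0.93 ± 0.26 log2 units (SE, edgeR adjusted p = 0.0194), and 1 of its 5 tested clusters was called higher (15.9% over all clusters), none with whole-library size. The other Xist region, from 100675384 to 100677777, had a log2 fold of 0.60 and did not pass. Y chromosome tags made up 0.0282%, 0.0162% and 0.0185% of all tags in WT and 0.0119% and 0.0319% in ΔE2. The sex of the pooled embryos was not tested. The Neat1 and Xist region calls were each lost without WT 2, WT 3 or ΔE2 1, and the Malat1 region call without any 1 library other than WT 1. With WT 2 and WT 3 joined, the regions of Malat1, Neat1 and Xist were not called (edgeR adjusted p = 0.184, 0.0686 and 0.0686).

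Ribosomal RNA and a host gene of small nucleolar RNAs gained tags as well. The 45S ribosomal precursor has many near-identical copies in the genome, so tags placed at Rn45s (chromosome 17, 39979942 to 39985763, plus strand) cannot be assigned to 1 copy, and its values are uncertain in that sense. The region held 915, 1103 and 1682 tags in WT and 1645 and 1811 in ΔE2, or 89997, 52349 and 46264 CPM against 109133 and 156095. Rn45s was higher by 1.08 ± 0.29 log2 units (SE, edgeR adjusted p = 0.0134). As a share of all tags, however, the genotypes overlapped: Rn45s gave 2.58%, 1.49% and 1.35% in WT and 2.45% and 2.76% in ΔE2, since WT 1 was high. With whole-library size the log2 fold was 0.53 and not called (edgeR adjusted p = 0.140), and the call was lost without WT 2, WT 3, ΔE2 1 or ΔE2 3. It was also lost with WT 2 and WT 3 joined (edgeR adjusted p = 0.167).

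Of the 9 tested Rn45s clusters, 4 were called higher and none lower (15.9% higher over all clusters), with a median log2 fold of 1.07. With whole-library size 2 were called higher, and the median was 0.54. The cluster from 39983816 to 39983871 had 4673, 4069 and 4711 CPM in WT and 13872 and 16318 in ΔE2, a log2 fold of 1.75 (edgeR adjusted p = 0.00348) that kept its call without any 1 library and under whole-library size. The densest cluster, from 39984118 to 39984215, held 225, 267 and 458 tags in WT and 596 and 657 in ΔE2. Its log2 fold was 1.65 (edgeR adjusted p = 0.0138), and 0.84 with tags collapsed to 1 per 5′ end. That call ended without WT 2 or WT 3, with whole-library size (edgeR adjusted p = 0.0599) and with tags collapsed by position (log2 fold 0.64, edgeR adjusted p = 0.0819). Log2 folds ran from 0.54 to 1.80 over the 9 clusters, the lowest being -0.04 with whole-library size, and the test of shares called none of them.

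Mitochondrial RNA on the plus strand, from position 70 to 4294, which covers both ribosomal RNAs and runs past them, held 32, 53 and 82 tags in WT and 79 and 86 in ΔE2. The CPM were 3147, 2515 and 2255 in WT and 5241 and 7413 in ΔE2. The difference was 1.29 ± 0.27 log2 units (SE, edgeR adjusted p = 0.00173), the call stood without any 1 library, and with whole-library size it was not called, at a log2 fold of 0.74 (edgeR adjusted p = 0.0517). Both tested clusters inside the ribosomal RNAs, from 1094 to 1353 and from 2628 to 2677, were called higher, at log2 folds of 1.09 and 1.73, and neither was called with whole-library size. The first lost its call without WT 2, WT 3 or ΔE2 3.

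Gas5 is a noncoding gene whose introns carry small nucleolar RNAs. Its region (chromosome 1, 162965302 to 162968477, plus strand) held 27, 66 and 90 tags in WT and 81 and 90 in ΔE2, or 2656, 3132 and 2475 CPM against 5374 and 7757. All ΔE2 values lay above all WT values, and the log2 fold was 1.25 ± 0.27 (SE, edgeR adjusted p = 0.00243). The region call stood without any 1 library and ended with whole-library size (log2 fold 0.70, edgeR adjusted p = 0.0626).

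Among imprinted genes, H19 was called higher and Dlk1 lower. H19 and Igf2 are neighbours on chromosome 7 that are expressed from opposite parental copies, and Dlk1 and Meg3 form such a pair on chromosome 12; these genes are active in growing embryonic tissue. H19 (149761498 to 149763991, minus strand) held 30, 82 and 118 tags in WT and 126 and 113 in ΔE2, or 2951, 3892 and 3246 CPM against 8359 and 9740. H19 rose by 1.41 ± 0.26 log2 units (SE, edgeR adjusted p = 0.000738). Of its 4 tested clusters, 3 were called higher (15.9% over all clusters), and 1 with whole-library size. The cluster from 149762096 to 149762233 lost its call without WT 2, WT 3, ΔE2 1 or ΔE2 2, and that from 149761614 to 149761860 without WT 3. The region kept its call without any 1 library, with WT 2 and WT 3 joined (edgeR adjusted p = 0.0166) and with whole-library size (log2 fold 0.88, edgeR adjusted p = 0.0261).

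Igf2, the growth factor gene, fell short of a call at the level of regions, with log2 folds of -0.64 and -0.24 over its 2 regions. Both were called lower with whole-library size, at -1.17 and -0.77 (edgeR adjusted p = 0.0105 and 0.0464), as were 148 of all 672 tested regions. Its densest cluster (chromosome 7, 149844614 to 149845160, minus strand) was among the 5 with the most tags of all. That cluster had 35326, 22988 and 21645 CPM in WT and 15588 and 17768 in ΔE2, without overlap between the genotypes, and a log2 fold of -0.67 ± 0.33 (SE, edgeR adjusted p = 0.174). With whole-library size the same cluster was called lower (log2 fold -1.24, edgeR adjusted p = 0.0306), as were 58 of all 276 tested clusters. As a share of all tags, Igf2 gave 0.864%, 0.572% and 0.525% in WT and 0.343% and 0.306% in ΔE2. Of its 4 tested clusters, 1 was called lower (6.52% over all clusters), from 149841597 to 149841713, with 7, 13 and 19 tags in WT and 2 and 2 in ΔE2. Its log2 fold was -1.94 (edgeR adjusted p = 0.0374), and the call was lost without any 1 library other than WT 1.

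Dlk1, a membrane protein of the Notch ligand family that is made by immature mesenchymal cells, lost tags. Its region (chromosome 12, 110697901 to 110700552, plus strand) held 72, 152 and 238 tags in WT and 65 and 38 in ΔE2, or 7082, 7214 and 6546 CPM against 4312 and 3275. Dlk1 changed by -0.86 ± 0.28 log2 units (SE, edgeR adjusted p = 0.0437), and -1.37 with whole-library size. The call was lost without WT 2, WT 3, ΔE2 1 or ΔE2 3. With tags collapsed to 1 per 5′ end the log2 fold was -0.23 and no longer called (edgeR adjusted p = 0.628). The region was not called with WT 2 and WT 3 joined either (edgeR adjusted p = 0.123). Along the noncoding genes from Meg3 to Mirg downstream of Dlk1, 5 regions were tested and none was called, with log2 folds from -0.16 to 0.97. Over all 9 imprinted regions, 1 was higher (8.18% over all regions), 1 was lower (2.38%), and the median log2 fold was 0.12. These counts are too small to set the group apart.

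**Figure D4:**
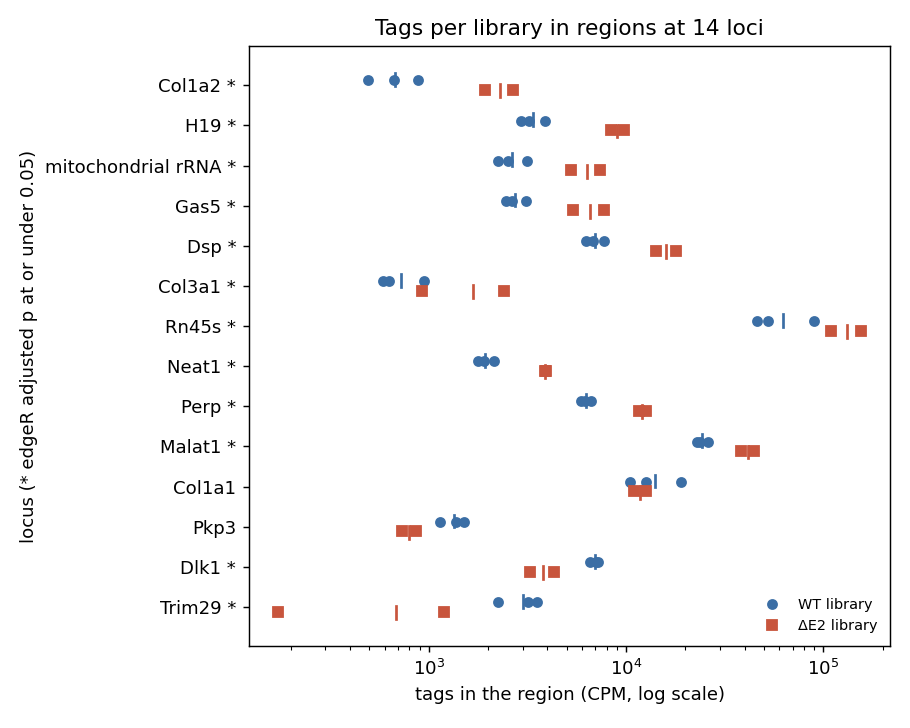
Tags per library (CPM, log axis) in regions at 14 loci, ordered by log2 fold; circles are WT libraries, squares ΔE2 libraries, bars the group means and stars mark regions called by edgeR. Both ΔE2 libraries lie above all WT libraries at 9 loci from Col1a2 to Malat1, the exception among the called gains being Col3a1, and below them at Pkp3, Dlk1 and Trim29. Over all tested regions, the genotypes did not overlap in 47.8%. The 14 loci were picked by hand, and the known loci Xist, Igf2, Meg3 to Mirg and the keratins are left out.

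Genes of skin and connective tissue checked the label of the tissue and moved both ways. Keratins, Perp, Trim29, the plakophilin Pkp3 and desmoplakin (Dsp) belong to epidermis and its desmosomes, and collagens I and III belong to dermis, bone and loose connective tissue. Tags at these genes made up from 2.30% to 2.499% (skin) and from 0.398% to 0.610% (collagen) of all tags in the WT libraries. In the ΔE2 libraries the shares were 2.05% and 1.67% for skin and 0.360% and 0.371% for collagen, below all WT libraries in both cases. With whole-library size the median log2 fold over all tested regions was also below 0, at -0.57. On the TMM scale the median was -0.08 for the 12 skin regions and 1.13 for the 3 collagen regions. The lower collagen share lay at Col1a1 (group means 0.407% in WT and 0.238% in ΔE2), while the mean shares of Col1a2 and Col3a1 were higher in ΔE2. Among skin genes, the shares of Perp and Dsp lay above all WT libraries and the others below. Shares did not overlap at any known locus except Rn45s and Col3a1, so this does not set the skin genes apart. In CPM the genotypes did not overlap in 7 of the 12 skin regions, against 47.8% of all tested regions. The skin values include Dsp, which was added to the loci after its values were seen. In a mixed tissue, fewer cells of a type and less RNA per cell cannot be told apart, and their part in the results was not tested.

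Dsp, which anchors keratin filaments at desmosomes and was added to the loci after its values were seen, rose (chromosome 13, 38281411 to 38290420, plus strand). It held 64, 163 and 248 tags in WT and 213 and 208 in ΔE2, or 6295, 7736 and 6821 CPM against 14131 and 17928. Dsp was higher by 1.20 ± 0.26 log2 units (SE, edgeR adjusted p = 0.00279), and the call stood without any 1 library but not with whole-library size (log2 fold 0.66, edgeR adjusted p = 0.0686). Within Dsp, the cluster from 38290096 to 38290309 had a log2 fold of 1.55 (edgeR adjusted p = 0.00725), and it was called under whole-library size too (log2 fold 1.02, edgeR adjusted p = 0.0218). Its neighbour from 38289765 to 38289997 had a log2 fold of 0.54 and was not called.

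Perp, a desmosome protein of stratified epithelia, also rose: its region (chromosome 10, 18573368 to 18576841, plus strand) had 5901, 6170 and 6684 CPM in WT and 11676 and 12584 in ΔE2. Perp rose by 0.95 ± 0.26 log2 units (SE, edgeR adjusted p = 0.0150), and the call was lost without WT 2 or WT 3 and with whole-library size. The call also ended with WT 2 and WT 3 joined (edgeR adjusted p = 0.0912).

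Trim29, a protein of keratinocytes, lost most of its tags (chromosome 9, 43143209 to 43144247, plus strand). It held 36, 67 and 82 tags in WT and 18 and 2 in ΔE2, or 3541, 3180 and 2255 CPM against 1194 and 172. Both ΔE2 libraries lay below all WT libraries, and nearly all tags that were left came from ΔE2 1. Trim29 changed by -1.96 ± 0.40 log2 units (SE, edgeR adjusted p = 0.00173), and the region call stood without any 1 library, with WT 2 and WT 3 joined and with whole-library size. With molecules of both genotypes dropped, which widens differences by construction, its log2 fold was -2.74. Its 1 tested cluster, from 43143209 to 43143462, was also called lower, but not without WT 2. At Pkp3, 1 cluster (chromosome 7, 148276138 to 148276359, plus strand) fell from 2518 ± 343 CPM for WT to 720 ± 7.22 for ΔE2 (SD, n = 3 and 2). This was a log2 fold of -1.79 (edgeR adjusted p = 0.0138) that was lost without WT 2, WT 3 or ΔE2 1. The whole Pkp3 region had a log2 fold of -0.78 and was not called.

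The keratins were mostly not called. Of 15 tested clusters at the type II keratins on chromosome 15, 1 was lower and none higher, near the 6.52% called lower over all clusters, with a median log2 fold of -0.48 and a range from -1.23 to 0.56. The cluster that passed lay from 101689208 to 101689454 on the minus strand, with 12710, 11087 and 12096 CPM in WT and 7007 and 3626 in ΔE2. This keratin cluster changed by -1.14 ± 0.33 log2 units (SE, edgeR adjusted p = 0.0354), the call was lost without WT 2 or WT 3, and with tags collapsed to 1 per 5′ end the log2 fold was -0.57 (edgeR adjusted p = 0.115). None of the 5 tested clusters at the type I keratins on chromosome 11 was called, with a range from -0.65 to 0.29. With whole-library size, 6 of the 15 type II clusters were lower, against 58 of all 276. Keratin clusters were also among the sites with many tags and folds near 0: that on chromosome 15 from 101748980 to 101749189 had 10925 ± 1546 CPM for WT against 11933 ± 3124 for ΔE2 (SD, n = 3 and 2), a log2 fold of 0.13 ± 0.29 (SE), or -0.43 with whole-library size.

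Of the 2 genes for type I collagen, Col1a2 was called and Col1a1 was not. Col1a2 (chromosome 6, 4477838 to 4491481, plus strand) held 5, 14 and 32 tags in WT and 29 and 31 in ΔE2, or 492, 664 and 880 CPM against 1924 and 2672. Col1a2 rose by 1.61 ± 0.31 log2 units (SE, edgeR adjusted p = 0.00101), and it was called without any 1 library, with WT 2 and WT 3 joined and with whole-library size (log2 fold 1.08, edgeR adjusted p = 0.0193). Col1a1 (chromosome 11, 94799149 to 94814640, plus strand), with more tags, had 18983, 12625 and 10452 CPM in WT and 10946 and 12670 in ΔE2, which overlapped. Col1a1 differed by -0.23 ± 0.28 log2 units (SE, edgeR adjusted p = 0.627). Its 3 tested clusters had log2 folds from -1.05 to -0.76, and none was called. In all 3 both ΔE2 libraries lay below all WT libraries, and 55.8% of all tested clusters had no overlap. With whole-library size 2 of the 3 were called lower, as were 58 of all 276 tested clusters. The difference between the 2 genes' folds was not tested. Col3a1 (chromosome 1, 45403965 to 45406334, plus strand) had 590, 949 and 633 CPM in WT and 929 and 2413 in ΔE2. It was called higher at a log2 fold of 1.13 (edgeR adjusted p = 0.0456), with 1 ΔE2 library inside the WT range, and lost the call without WT 3 or ΔE2 3 and with whole-library size. With WT 2 and WT 3 joined, Col3a1 was not called (edgeR adjusted p = 0.0888).

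Outside the known loci lay 210 of the 276 tested clusters, with 26 of the 44 higher and 13 of the 18 lower ones, and 641 of the 672 tested regions, with 44 of the 55 higher and 13 of the 16 lower ones. No mm9 annotation was used, so these have no gene name here, except for Fgfr2, which the splicing table names. The region with the smallest p (chromosome X, 23585542 to 23585874, plus strand) had 2, 7 and 10 tags in WT and 25 and 51 in ΔE2. ΔE2 exceeded WT here by 3.35 ± 0.40 log2 units (SE, edgeR adjusted p = 1.47e-06), and 2.79 with whole-library size. It was followed by chromosome 2, 5300082 to 5302172, minus strand, with a log2 fold of 2.06 (edgeR adjusted p = 9.75e-05). Then came 2 places on plus strands: chromosome 5, 115939521 to 115940379, at 2.43 (edgeR adjusted p = 0.000308), and chromosome 19, 9067368 to 9081611, at 1.89 (edgeR adjusted p = 0.000329).

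The region of chromosome 19 spans 14244 nt and held 5, 19 and 22 tags in WT and 30 and 37 in ΔE2. Shorter were the regions on chromosome 17 from 71313051 to 71313207 and chromosome 6 from 3150766 to 3151671, both on the plus strand, with log2 folds of 1.99 and 1.94. The region of chromosome 6 had 6098, 3844 and 2338 CPM in WT and 8027 and 21979 in ΔE2, so its ΔE2 libraries differed by more than the WT range. The remaining gains among the 10 smallest p values, beside H19 and Col1a2, were chromosome 13 from 56390059 to 56391895, minus strand (log2 fold 1.402), and chromosome 5 from 115547206 to 115548722, plus strand (1.43). All 10 of these gains were called without any 1 library, with whole-library size and with WT 2 and WT 3 joined. With tags collapsed to 1 per 5′ end, that of chromosome 13 was no longer called (edgeR adjusted p = 0.0726) and the other 9 were.

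The losses without a gene name were smaller in number and rested on few ΔE2 tags. On the minus strand of chromosome 3, 36347887 to 36348320 held 12, 29 and 43 tags in WT and 5 and 4 in ΔE2 (log2 fold -1.87, edgeR adjusted p = 0.00308). On the minus strand of chromosome 1, 92671322 to 92672772 held 26, 45 and 51 tags against 6 and 10 (log2 fold -1.64, edgeR adjusted p = 0.00711). On the minus strand of chromosome 8, 87228631 to 87232385 held 42, 47 and 92 tags against 15 and 14 (log2 fold -1.36, edgeR adjusted p = 0.00849). Chromosome 5, 93599890 to 93604099, plus strand, held 56, 100 and 161 tags against 44 and 19. Its log2 fold was -1.05 (edgeR adjusted p = 0.0190). Clusters of this region are listed because it held at least 2 calls, so the number of calls adds no support. Called lower were the cluster from 93602358 to 93602489 (lost without WT 2, WT 3, ΔE2 1 or ΔE2 2) and that from 93602896 to 93603002 (lost without WT 2 or WT 3). The third, from 93602001 to 93602255, had a log2 fold of -0.37 and was not called.

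Of the 10 losses among regions with the smallest p, 8 lost their call without some library, the exceptions being Trim29 and the region of chromosome 3 at 36347887. Leaving out ΔE2 1 ended the calls at chromosomes 1 and 8. It also ended those at 88285094 to 88286008 (chromosome 3), 32337992 to 32339478 (chromosome 17), 133275506 to 133278896 (chromosome 4) and 25992385 to 25994418 (chromosome 2), all on the minus strand. Leaving out ΔE2 3 likewise ended the calls at chromosomes 8, 17, 4 and 2. The call at chromosome 4 was also lost without WT 1 or WT 3, and that at chromosome 2 without WT 2, WT 3 or ΔE2 2. Those at chromosome 5 and at the type II keratins (chromosome 15, 101688754 to 101691774) ended without WT 3 or ΔE2 3, the keratin region also without WT 2. All 10 were called with whole-library size. With WT 2 and WT 3 joined, 4 of the 10 were no longer called, at chromosome 5, the keratins, chromosome 4 and chromosome 2 (edgeR adjusted p = 0.0772, 0.0912, 0.0543 and 0.112). The keratin and chromosome 2 regions also missed the call with tags collapsed to 1 per 5′ end (edgeR adjusted p = 0.270 and 0.0598). Among single clusters without a gene name, the losses were as large as -3.35 on the log2 scale (chromosome 8, 87228858 to 87228956, minus strand, edgeR adjusted p = 0.0134), a call that ended without ΔE2 1. The cluster on chromosome 1 from 92672542 to 92672772, minus strand, fell by 2.20 on the log2 scale (edgeR adjusted p = 0.00897) and was called without any 1 library. DESeq2 on the same filtered regions called 17, of which 16 were higher and 1, Trim29, was lower. The regions of Malat1, Neat1, Xist, Rn45s, Dlk1, Perp and Col3a1 were not among these 17.

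Cassette exons listed in the authors' deposited splicing table give the only gene names that come with the files. The table is titled for Mbnl3 WT against KO, but its header calls the mutant columns Mbnl2 KO, so here it gives only names and places. It has 98 events in 84 genes, with mm9 positions, and forelimb CLIP tags on the strand of the gene were counted over their 85 merged spans of 764110 nt in all. The spans held 44, 116 and 232 tags in WT and 119 and 142 in ΔE2, or 0.124%, 0.156% and 0.187% of all tags in WT and 0.177% and 0.216% in ΔE2, which overlapped. The opposite strand held 0, 2 and 0 tags in WT and 2 and 1 in ΔE2, so nearly all tags followed the strand of the gene. At least 1 tag fell in 76 events, at least 10 in 24, and 22 had none.

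The 5 events with the most tags lay in Mbnl1, Fgfr2, Rbm9, Sec24b and Ptpn13. Mbnl1 is the muscleblind protein of adult muscle and regulates exons of its own family; its event (chromosome 3, 60305186 to 60399685, plus strand) held 8, 17 and 31 tags in WT and 11 and 14 in ΔE2. Per 1000000 tags of all libraries of a genotype this was 239 in WT and 188 in ΔE2. Rbm9 (Rbfox2), another splicing regulator, held 3, 7 and 12 tags in WT and 5 and 7 in ΔE2 over the wider of its 2 listed events. Sec24b, a coat protein of vesicles that leave the endoplasmic reticulum, held 3, 5 and 11 against 3 and 8. Ptpn13, a tyrosine phosphatase, held 2, 4 and 10 against 6 and 6.

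Fgfr2, a receptor for fibroblast growth factors with mutually exclusive exons in epithelium and mesenchyme, gained tags. Only 2 tested regions overlapped an event, at Fgfr2 and at Hdgf. The Fgfr2 region (chromosome 7, 137339797 to 137343193, minus strand) held 8, 23 and 34 tags in WT and 28 and 37 in ΔE2, or 787, 1092 and 935 CPM against 1858 and 3189. Fgfr2 rose by 1.36 ± 0.31 log2 units (SE, edgeR adjusted p = 0.00360), and it was called with whole-library size (edgeR adjusted p = 0.0484) but not without WT 3. The region is described because it overlaps a listed event, and its values were seen first. Hdgf (chromosome 3, 87718057 to 87720733, plus strand) had a log2 fold of 0.20 and was not called. Cartilage and muscle genes could be looked at only inside events: Col2a1 held 2, 7 and 11 tags in WT and 2 and 2 in ΔE2, Acan 4 tags in all libraries together, Dysf 1 and Col11a2 none.

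The libraries also differed in shape. A library's tags were more often alone in ΔE2: 66.3%, 65.0% and 60.4% of WT tags stood in a cluster of 1 tag, against 72.0% and 71.0% of ΔE2 tags. Fewer ΔE2 tags lay in clusters with at least 10 tags of the library, at 10.9% and 10.4% against 12.9%, 12.3% and 14.4% in WT. Both measures separated the genotypes without overlap (two-sided exact permutation p = 0.1 each, adjusted p = 0.2 over 10 measures), and 0.1 is the smallest p that 3 against 2 libraries allow. Of the 10 measures, reads per tag and the shares of autosomal, X chromosome, mitochondrial and plus-strand tags did not overlap either. Since depth bears on single tags and on clusters of 10 or more, each library was thinned to the 35413 tags of the smallest. Single tags were then 70.6% ± 3.69 for WT against 77.0% ± 0.0859 for ΔE2 (SD, n = 3 and 2). The libraries had 66.3%, 72.2% and 73.2% in WT and 77.0% and 76.9% in ΔE2, without overlap but nearer to each other for WT 2 and WT 3 than before thinning (two-sided exact permutation p = 0.2, adjusted p = 0.36). The share in clusters of 10 or more overlapped.

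Mean tag length was 30.8, 29.9 and 29.8 nt in WT and 30.4 and 31.5 nt in ΔE2, which overlapped (two-sided exact permutation p = 0.3). Lengths ran from 19 to 38 nt, and 54.5%, 46.4% and 45.1% of WT tags and 51.5% and 61.1% of ΔE2 tags were 35 nt or longer. ΔE2 tags were backed by 96.4 reads per tag in ΔE2 1 and 549.7 in the joined library, against 71.7, 91.6 and 61.8 in WT. The joined value adds the reads of both its replicates, which had 267 (ΔE2 2) and 428 (ΔE2 3) reads per tag by themselves. The 10 largest clusters of a library held 3.23% ± 1.19 of tags for WT against 3.70% ± 0.319 for ΔE2 (SD, n = 3 and 2), and the genotypes overlapped.

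**Figure D5:**
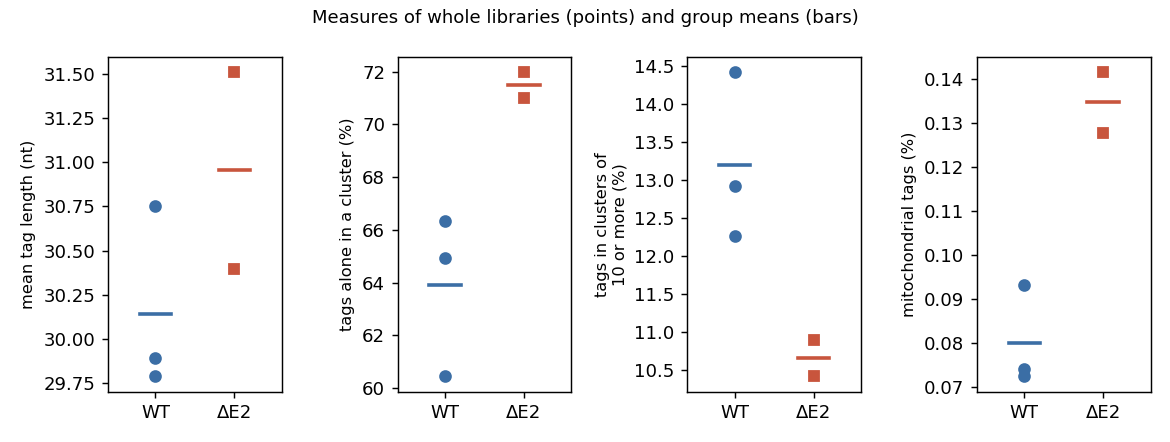
Mean tag length in nt, share of tags alone in a cluster, share of tags in clusters of 10 or more tags and share of mitochondrial tags, each in percent, for 3 WT (blue circles) and 2 ΔE2 libraries (red squares), with group means as bars; the axes do not start at 0. Single tags were 60.4% to 66.3% in WT and 71.0% to 72.0% in ΔE2, and mean lengths overlapped.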

How the data were processed

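Per the submitters' processing notes, CLIP reads were placed on mm9 with Novoalign, and TopHat 1.3.2 was used for RNA-seq; their settings are not given in the sources used here. Tag files as deposited list 1 tag per position and barcode, and their score column, whose meaning no header gives, was not used. The deposited splicing table holds estimated counts per isoform as group totals, per the file headers; only its gene names and positions were used. Each tag was counted once, and reads per tag and barcodes were read from the tag names.

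ΔE2 replicates 2 and 3 were joined, each molecule once. Clusters (overlap of at least 1 nt) and regions (gaps up to 1000 nt) went through edgeR 4.0.16 (R 4.3.3): filterByExpr with a minimum of 10, TMM on tested sites and quasi-likelihood F tests, called at 0.05 after Benjamini-Hochberg adjustment, 3 WT against 2 ΔE2 libraries, and shares of a region with diffSpliceDGE. Library measures were compared by exact permutation (scipy 1.17.1). DESeq2 1.42.0 was an alternative. The fits were tested on simulated data with known changes; the test of shares missed most of the changed clusters there, so an uncalled share is not shown to be unchanged. Tags in tested sites ranged from 5234 to 13499 per library for clusters and from 10344 to 31990 for regions, so sites with few tags are imprecise. No source says that the replicate pools share no embryo or preparation, so p-values measure the spread between these libraries, which may be technical.

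The sites named are the 10 with the smallest p in each direction, all tested clusters of regions with several calls, the 5 with most tags, the 5 nearest to 0 among the 30 with most tags, 5 events and 19 known loci; Xist and Dsp were added to the loci after their values were seen. The comparison, the lists and the loci were chosen with earlier results of these data known. Numbers did not pair the libraries: same-numbered WT and ΔE2 libraries had correlations of their deviations of -0.18, -0.078 and -0.13.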

Additional observations from a re-analysis of the deposited data

How the results depend on the processing

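The called sites kept their sign wherever the same site could be tested, with 1 exception, the Malat1 region without a filter (-0.054). The number of calls depended on the processing; the causes were not tested. Called clusters, 62 as reported, numbered 0 with WT 2 and 3 joined, 27 with molecules shared within a genotype dropped, 41 with tags collapsed by 5′ end, 19 without a filter, 7 by DESeq2 and 35 by DESeq2 after the filter, 110 with molecules shared between genotypes dropped, and 16 to 90 with 1 replicate left out. Called regions, 71 as reported, numbered 116 with 6 libraries as labelled, 37 with WT 2 and 3 joined, 31 with molecules shared within a genotype dropped, 43 from tags with at least 2 reads, 0 without a filter (2330 at an unadjusted p under 0.05 in edgeR, 10 called by DESeq2), 170 with whole-library size, 10 and 17 by DESeq2 without and with the filter, 138 with molecules shared between genotypes dropped, and 34 to 90 with 1 replicate left out. Called shares, 2 as reported, numbered 1 with WT 2 and 3 joined, with molecules shared within a genotype dropped and by 5′ end, 0 without a filter (616 at an unadjusted p under 0.05 in edgeR), 4 with at least 20 tags, 4 under either treatment of molecules shared between genotypes, and 0 to 3 with 1 replicate left out. With a replicate block on the 6 libraries, 64 clusters, 103 regions and 2 shares were called, against 85, 116 and 3 without it; the libraries share only a number. Treatments of molecules shared between genotypes and thinning were chosen after seeing the data.

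Signs that turned were all of uncalled sites or differences, apart from that Malat1 region. Malat1 5797382 to 5797951 had -0.051 with 6 libraries as labelled (-0.046 with the replicate block), -0.15 from tags with at least 2 reads, -0.66 without a filter, -0.47 with whole-library size, -0.12 by DESeq2 and -0.064 with molecules kept in the library with most reads. Malat1 5800965 to 5801394 had 0.10 with molecules shared within a genotype dropped, 0.079 by position, 0.00013 with at least 20 tags, 0.052 with RLE factors, 0.060 by filtered DESeq2, 0.16 and 0.13 with shared molecules dropped or kept by most reads, and from -0.23 to 0.28 with 1 replicate left out. Without a filter and with whole-library size, in that order, Malat1 5799681 to 5799989 had -0.29 and -0.060, 5800053 to 5800296 -0.41 and -0.21, 5801396 to 5801682 -0.23 and -0.0017, Rn45s 39984437 to 39984594 -0.0431 and -0.0434, and the keratin clusters 101748980 to 101749189 -0.53 and -0.43 and 99993095 to 99993251 -0.45 and -0.21. Without a filter, Malat1 5800378 to 5800944 had -0.028 and H19 149762324 to 149762432 -0.094. Keratin 101748980 to 101749189 also had -0.053 with molecules shared within a genotype dropped and -0.039 by DESeq2. Igf2 149836674 to 149836808 had 0.20 by position, 0.31 by 5′ end and from -0.24 to 0.082 with 1 replicate left out. The difference in the share of the 10 largest clusters was -0.37 percentage points by position. That in Y chromosome tags (0.00094 points as reported) was -0.00092 with molecules kept by most reads, -0.00094 after thinning and from -0.0091 to 0.011 with 1 library left out.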
